A study of Homo sapiens with 2 samples.

Results

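The cytotoxic granule genes described here are GZMM, PRF1, GNLY, NKG7, CTSW, CST7, SRGN and LAMP1, taken by the gene symbol of the platform annotation. All 8 were found among 14884 named genes, each with 1 probe set, so no choice between probe sets was needed. They were measured in SNK6, a human line of NK/T-cell lymphoma that carries Epstein-Barr virus, cultured in medium with fetal bovine serum and interleukin-2. One culture received romidepsin, which inhibits histone deacetylases of class I, and the other received romidepsin together with sildenafil, a phosphodiesterase 5 inhibitor, each for 72 h. Both groups therefore share the cell line, interleukin-2 and romidepsin, and differ by sildenafil alone. Each group is 1 array of 1 cell line. The values have no replicate error, no test between the treatments was possible, and treatment and any batch cannot be told apart. Doses were not given in the sources, and an untreated culture and a culture with sildenafil alone were not analysed here.

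Natural killer cells and cytotoxic T cells kill through secretory lysosomes, the lytic granules, which fuse with the plasma membrane at the contact with a target cell. Perforin opens a pore in the target membrane and granzymes, which are serine proteases, enter through it and cleave their substrates. Serglycin packs these positively charged proteins in the granule, cathepsins and cystatins set which proteases are processed, and LAMP1 coats the granule membrane. NK/T-cell lymphomas are known for keeping this granule programme, and granule proteins are among the markers by which they are diagnosed.

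The RefSeq promoter table held a start site for 4 of the 8 genes. The 250 bases before each start are shown because these genes cover the range of signals found here, with PRF1 and NKG7 in the brightest decile of genes past the low-signal filter defined below, LAMP1 between and GNLY at the dim end. Each is written 5′ to 3′ on the gene's own strand from GRCh38.p14, and capitals mark matches to the letters of 9 motifs searched on both strands. The windows lie at chr10:70602742-70602991 on the minus strand (PRF1), chr19:51372655-51372904 on the minus strand (NKG7), chr2:85694108-85694357 on the plus strand (GNLY) and chr13:113296989-113297238 on the plus strand (LAMP1).
PRF1: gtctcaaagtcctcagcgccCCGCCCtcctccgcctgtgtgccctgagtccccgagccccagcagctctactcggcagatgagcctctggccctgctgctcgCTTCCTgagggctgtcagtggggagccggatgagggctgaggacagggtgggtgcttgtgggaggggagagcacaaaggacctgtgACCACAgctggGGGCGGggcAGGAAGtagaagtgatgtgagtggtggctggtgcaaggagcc
NKG7: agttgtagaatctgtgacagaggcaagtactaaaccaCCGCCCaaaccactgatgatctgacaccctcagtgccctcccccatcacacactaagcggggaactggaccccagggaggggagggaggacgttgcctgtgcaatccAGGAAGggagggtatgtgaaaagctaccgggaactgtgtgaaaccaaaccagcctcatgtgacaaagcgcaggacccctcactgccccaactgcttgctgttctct
GNLY: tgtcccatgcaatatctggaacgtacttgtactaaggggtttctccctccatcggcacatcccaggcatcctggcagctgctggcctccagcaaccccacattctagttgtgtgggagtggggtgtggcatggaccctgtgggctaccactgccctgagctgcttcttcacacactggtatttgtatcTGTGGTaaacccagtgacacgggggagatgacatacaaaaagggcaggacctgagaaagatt
LAMP1: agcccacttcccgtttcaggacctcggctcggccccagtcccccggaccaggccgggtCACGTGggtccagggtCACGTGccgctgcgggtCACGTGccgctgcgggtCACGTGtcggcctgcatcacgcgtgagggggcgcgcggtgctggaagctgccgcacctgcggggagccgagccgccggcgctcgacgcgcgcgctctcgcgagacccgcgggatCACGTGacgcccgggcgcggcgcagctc

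The windows held different letters. The PRF1 window had 2 matches to the GC box GGGCGG, 2 to the ETS letters AGGAAG and 1 to the RUNX letters TGTGGT. The NKG7 window had 1 GC box and 1 ETS match, and the GNLY window had 1 RUNX match. Among 35116 RefSeq promoters cut to the same 250 bases, 42.6% held the GC box, 28.7% the ETS letters and 11.0% the RUNX letters. A match to such short letters is a description and no sign of binding.

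The LAMP1 window differed from the other three in composition and in motif. It held 40 CpG dinucleotides against 8 in PRF1, 5 in NKG7 and 3 in GNLY, with a median of 11 over all promoters. Its capitals are 5 copies of the E-box CACGTG, which begin 192, 176, 159, 142 and 28 bases before the start. On the written strand 4 of them are preceded by GT. The copy at 28 bases is followed by AC, which reads as a preceding GT on the other strand. The letters CACGTG form the core of the element bound by TFEB and TFE3, transcription factors of lysosomal genes, and are also bound by MYC and USF proteins. At least 1 copy occurred in 6.34% of the promoters and at least 2 copies in 0.535%, while LAMP1 was the only promoter of the 35116 with 5 copies. The count of copies was made after the LAMP1 sequence had been seen. None of the 4 windows matched TATAAA (in 10.7% of promoters), CCAAT (in 11240 of the promoters), the AP-1 letters TGANTCA (6.57%), the STAT letters TTCNNNGAA (6.57%) or the T-box letters GGTGTGA (2.76%). No matches to different motifs overlapped in the 4 windows.

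The deposited values are log2 signals, which ran from 0.93 to 13.05 with romidepsin and from 0.79 to 12.97 with the combination. The filter on low signal asked for 3.91, the median over the whole table, on at least 1 of the arrays, and 10081 named genes passed it. The labelled cell type was checked against markers: of 8 named NK cell markers 7 passed this level, among them NCAM1 (CD56) at 6.63 without and 6.54 with sildenafil, while EOMES lay below it on both arrays (3.21 and 2.90). Of 6 named myeloid markers 4 lay below it, including the lysozyme gene LYZ (2.17 and 2.24) and CD14 (3.62 and 3.79). Of the other markers, 5 of 6 named T cell genes, both named B cell genes (PAX5 and BLK) and 3 of 4 named fibroblast and epithelial genes passed it, while EPCAM was below it (2.85 and 3.18). The epithelial gene KRT18 (7.04 and 7.38) had a brighter signal than NCAM1, the brightest named NK cell marker. The NK cell marker TYROBP (4.23 and 4.33) was dimmer than PAX5 (5.23 and 5.05). Passing the filter therefore did not separate the cell types, and these markers do not settle the label. None of these markers differed by 1.5-fold between the arrays.

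All 8 granule genes differed by less than 1.5-fold between the arrays, so 0 of 8 passed that size, against 1.99% of the 10081 named genes. Their differences, given throughout on the log2 scale as the array with sildenafil minus the array without it, ran from -0.27 for NKG7 to 0.19 for GZMM. The median was -0.05, beside -0.01 over all named genes past the filter. The signal was lower with sildenafil for PRF1, NKG7, CTSW, CST7 and SRGN (5 of 8) and higher for GZMM, GNLY and LAMP1, while 52.4% of all genes lay below 0. The median size of the difference, without its sign, was 0.10 for the granule genes and 0.12 for all genes.

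**Figure D1:**
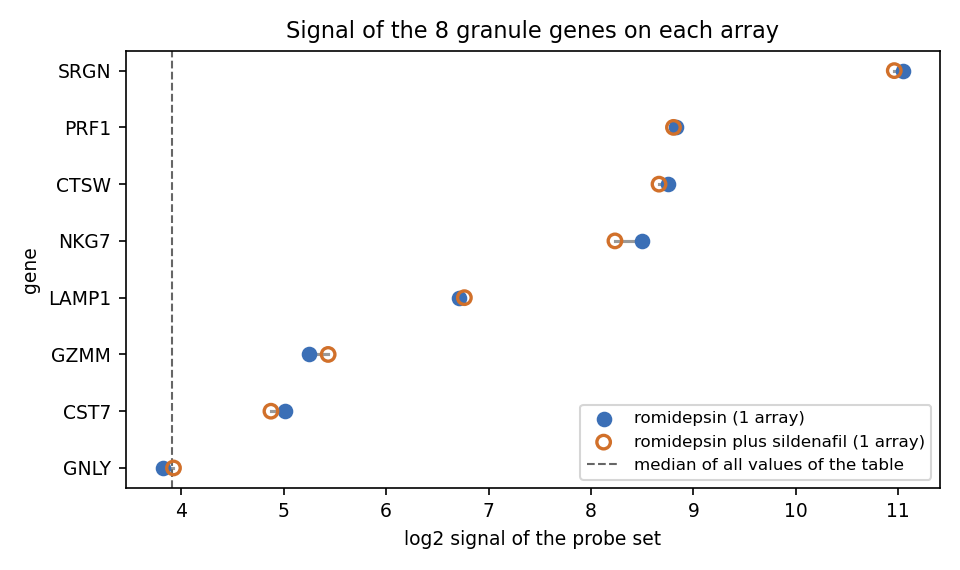
Log2 signal of the probe set of each granule gene (horizontal axis) on the romidepsin array (filled blue) and the array with romidepsin plus sildenafil (open orange), with the filter level of 3.91, the median over the whole table, as a dashed line. The paired points lie close together for every gene, NKG7 has the widest gap (8.50 and 8.23), and GNLY sits on the dashed line (3.82 and 3.92).

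The granule genes fell into bright and dim probe sets. SRGN, PRF1, CTSW and NKG7 lay above the 90th percentile of named genes on both arrays. LAMP1 was at percentiles 78.8 and 80.2, and GZMM, CST7 and GNLY lay between percentiles 33.3 and 61.4. Probe sets differ in how strongly they bind their target, so this order is one of signals and does not rank the amounts of the transcripts. The percentile of 1 gene can be set against itself on the other array, where its probe set is the same.

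Perforin, the pore-forming protein, was bright and nearly equal on both arrays. The log2 signal of PRF1 was 8.83 with romidepsin and 8.81 with the combination, a difference of -0.03. It was the 473rd brightest named gene on one array and the 464th on the other, and 77.8% of the 1009 genes of its signal decile lay at least as far from 0. The sign of so small a difference depended on the scaling, at -0.05 after median centring, 0.03 after quantile normalization and 0.0042 after lowess centring. PRF1 had the smallest difference of the 8 genes as deposited.

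GZMM, the only granzyme among these genes, encodes a serine protease that prefers to cut after methionine or leucine. Its log2 signal was 5.25 with romidepsin and 5.43 with the combination. The difference of 0.19 (1.14-fold) was the largest positive difference among the granule genes. It was smaller than the SD of differences in its signal decile, 0.22, and 37.2% of the 1008 genes of that decile lay at least as far from 0. GZMM had the same sign under every alternative scaling, with values between 0.16 and 0.22.

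GNLY encodes granulysin, a saposin-like protein that disrupts microbial membranes, and its signal was dim. The log2 signal was 3.82 with romidepsin and 3.92 with the combination, either side of the filter level. GNLY therefore passed the filter only on the array where it was higher, which favours a positive difference. Its difference of 0.11 lay within an SD of 0.34 among the dimmest decile of genes, and lowess centring put it at 0.0031. In that decile 7.94% of genes lay beyond 1.5-fold, against 0.396% in the brightest decile. Without GNLY the median of the other 7 genes was -0.08.

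NKG7, a membrane protein of the granule that promotes its release, showed the largest difference of the 8 genes. Its log2 signal was 8.50 with romidepsin and 8.23 with sildenafil added, a difference of -0.27 (-16.9% on the linear scale). Its rank among named genes moved from 671 to 862. The difference was 2.26 times the SD of its signal decile (0.12), and 39 of the 1009 genes of that decile (3.87%) lay at least as far from 0. It still fell inside the central 95% of the decile, which ran from -0.29 to 0.17. In bulk RNA, fewer cells with the transcript and less of it per cell cannot be told apart.

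At a lower size of 1.2-fold, NKG7 was the 1 granule gene of 8 past the threshold, against 19.3% of all named genes in either direction and 9.63% lower. That position depended on the scaling. The difference was -0.30 after median centring, -0.21 after quantile normalization and -0.24 after lowess centring, and the last 2 of these are within 1.2-fold. After quantile normalization 6.65% of its decile lay at least as far from 0. The sign was negative under each of these scalings. NKG7 rests on 1 probe set, and in the RefSeq annotation it overlaps LOC124904752, for which no value is given here. Among 94 other genes with 2 probe sets of mean signal 6 or more, the differences between the arrays given by the 2 probe sets were a median of 0.09 apart, and in 10.6% of these genes they were at least 0.27 apart.

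**Figure D2:**
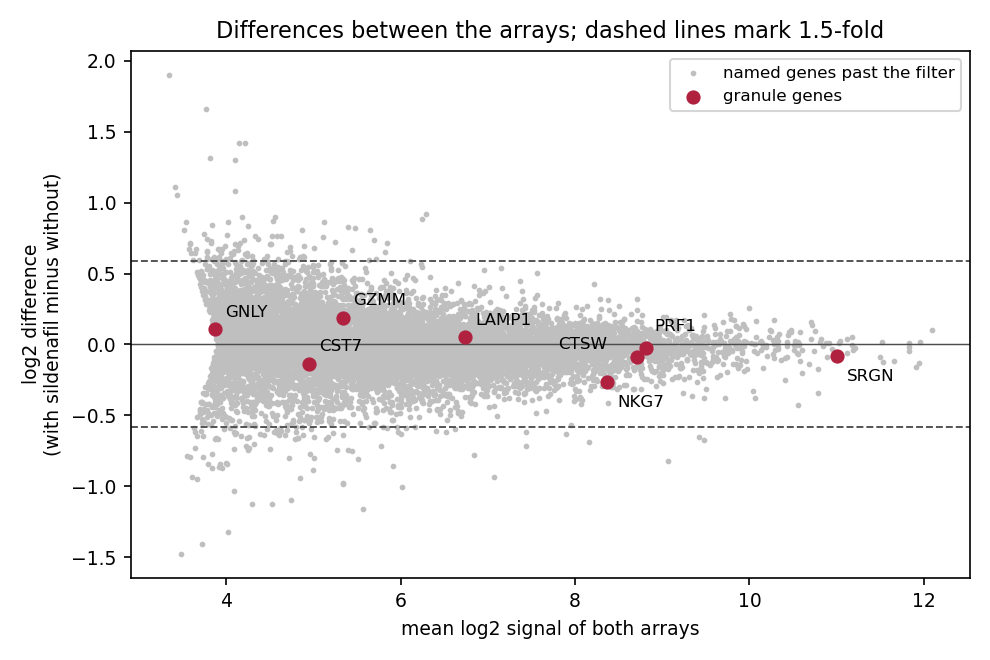
Log2 difference between the arrays (with sildenafil minus without) against the mean log2 signal of both, for 10081 named genes past the filter (grey) and the 8 granule genes (red), with dashed lines at 1.5-fold. The grey cloud narrows toward bright genes, all 8 red points lie inside the dashed lines, and NKG7 (-0.27) lies near the lower edge of the cloud at its signal.

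CTSW and CST7 encode a protease and a protease inhibitor. Cathepsin W, a cysteine protease largely restricted to NK and cytotoxic T cells, had a log2 signal of 8.75 with romidepsin and 8.66 with the combination. The difference of -0.09 was below the SD of its decile, and 38.7% of the decile lay at least as far from 0. CTSW overlaps FIBP in the RefSeq annotation, and FIBP differed by 0.03 (7.55 and 7.58). Cystatin F, the product of CST7, inhibits cathepsins inside the granule, including the one that activates granzymes. Its log2 signal was 5.01 with romidepsin and 4.88 with the combination, a difference of -0.14, and 53.8% of its decile lay at least as far from 0. CTSW and CST7 thus lay on the same side of 0, each closer to it than the SD of its decile.

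SRGN and LAMP1 encode the granule's matrix and a protein of its membrane. Serglycin, the proteoglycan core to which granzymes and perforin bind, was at 11.04 with romidepsin and 10.96 with the combination. It was the 18th and the 20th brightest named gene on the respective arrays. Its difference of -0.08 was matched or exceeded in size by 42.6% of its decile. LAMP1, a glycoprotein of all lysosomes whose appearance at the cell surface is used as a degranulation marker, was at 6.71 and 6.76. Its difference of 0.05 was reached in size by 73.5% of its decile. TFEB, named here after its value was seen because of the E-boxes of the LAMP1 window, was at 3.90 and 4.36, a difference of 0.46 at a dim signal where the SD was 0.34. It passed the filter only on the array where it was higher. TFE3 differed by -0.02.

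Of the 8 genes, 7 lay closer to 0 than the SD of their signal decile, with NKG7 the exception. Most genes of every decile lie within its SD and their share was not computed, so this count does not set the granule genes apart. The median change in rank among named genes past the filter was 227 places, and 2 of the 8 genes moved further than that (GZMM by 385 and CST7 by 328 places). LAMP1 moved by 211, NKG7 by 191, GNLY by 148, CTSW by 34, PRF1 by 9 and SRGN by 2 places. Genes are sparser at bright signals, where a difference of the same size moves a gene by fewer places. The median over all signals is therefore no measure of stability for the bright granule genes. Other scalings changed 1 sign. After quantile normalization and after lowess centring 4 genes were lower and 4 higher, as PRF1 changed side. Among the named genes past the filter that lay beyond 1.5-fold, the share that was higher was 51.2% as deposited, 50.0% after quantile normalization, 40.2% after median centring and 31.9% after lowess centring.

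**Figure D3:**
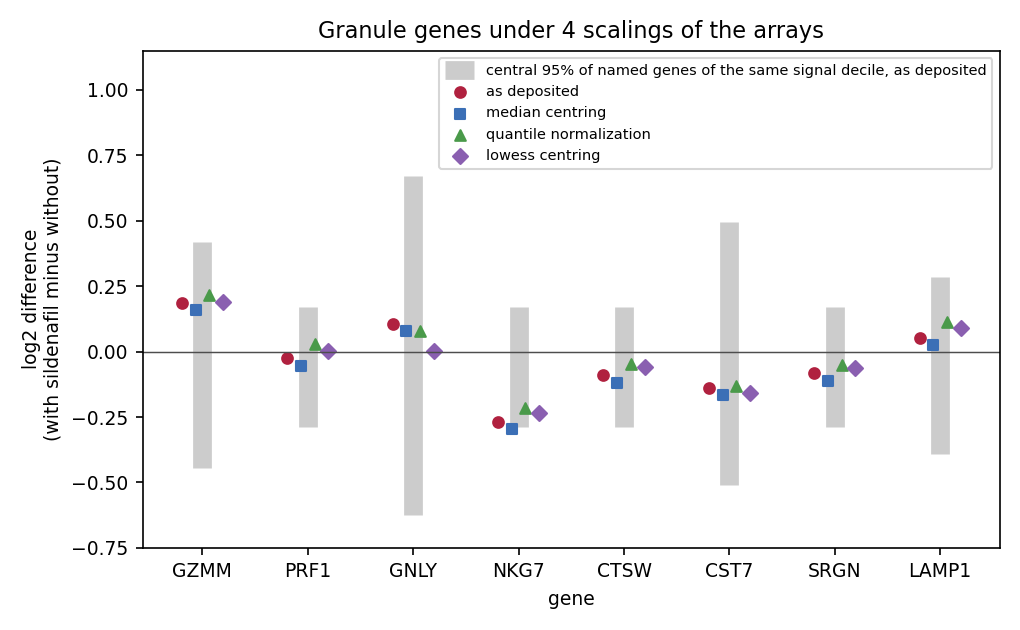
Log2 difference of each granule gene (with sildenafil minus without) as deposited (red circles) and after median centring (blue squares), quantile normalization (green triangles) and lowess centring (purple diamonds), over a grey bar for the central 95% of named genes of the same signal decile. Every value as deposited lies within its bar, the bars are widest for GNLY and narrowest for the 4 bright genes, and PRF1 changes sign between scalings.

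Genes in the pathway of the granule were taken from 11 lists of related function, with 226 genes, of which 124 were named and 110 passed the filter. None of the 110 differed by 1.5-fold (1.99% of all genes did). At 1.2-fold 12 were higher and 7 lower, together 17.3%, against 19.3% of all named genes (9.71% higher and 9.63% lower). The median was -0.02. The other granzymes, the ligand FASLG and interferon gamma belong to a list of which 2 genes were named. Of these TNF was at 7.29 on both arrays with a difference of 0.0050, and granzyme K was below the filter (2.97 and 2.66). The subunits of the vacuolar proton pump, which acidifies the granule, were not named and are not analysed here.

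Lysosomal proteases and their inhibitors were within 1.5-fold. Of 9 cathepsins and legumain past the filter, 4 were higher and 5 lower, beside 52.4% of all named genes below 0. None was beyond 1.2-fold, beside 19.3% of all named genes. CTSB was at 0.20, CTSK at 0.16 and CTSS, an endosomal cathepsin of antigen presentation, at -0.15. Cathepsin C, the peptidase that activates granzymes, was at 9.27 and 9.20 with a difference of -0.07, and is named for that role. From the list of cystatins and serpins no serpin was named, and the 6 genes past the filter are all cystatins. Of these 3 were higher and 3 lower, and 3 of the 6 were beyond 1.2-fold (2 higher and 1 lower), beside 19.3% of all named genes. CST3, the secreted cystatin C, was at 0.37 and CST2 at 0.30. CSTA, the cytosolic cystatin A, was 8.83 with romidepsin and 8.51 with the combination. Its difference of -0.32 lay outside the central 95% of the brightest decile, from -0.29 to 0.17, and that of NKG7 at -0.27 inside it.

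The genes of the machinery that releases the granule were within 1.5-fold. Of 23 measured genes 11 were higher and 12 lower, with a median of -0.01. HPS5, a subunit of a complex for lysosome-related organelles, was at 0.31, STX11, the syntaxin lost in a familial form of haemophagocytic lymphohistiocytosis, at 0.31 (6.26 and 6.57), and SYTL2, a Rab27 effector, at 0.29. These 3 were the only members of the 23 beyond 1.2-fold, beside 19.3% of all named genes, and SYTL2 was below the filter without sildenafil (3.64). HPS5 and STX11 lay outside the central 95% of their signal decile, which ran from -0.39 to 0.28. UNC13D, STXBP2 and LYST, which are also mutated in familial defects of degranulation and are named for that role, were at -0.04, -0.08 and 0.09.

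Lysosomal membrane proteins and hydrolases were within 1.5-fold. Of 10 membrane proteins 7 were lower and 3 higher, beside 52.4% of all named genes below 0, and the median was -0.08. TMEM192 was at -0.30, TPCN2, an endolysosomal cation channel, at 0.20, and LAMP2, the close relative of LAMP1, at -0.17 (7.84 and 7.67). Of 11 hydrolases 9 were lower and 2 higher, with a median of -0.07, HEXA at -0.25, GALC at -0.24 and ARSA at 0.21. Of the genes for mannose-6-phosphate sorting, which carries granzymes to the granule, M6PR was at 0.15, IGF2R at -0.06 and NAGPA at -0.25. Among the genes of these 3 lists, TMEM192 alone was beyond 1.2-fold, beside 19.3% of all named genes.

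Enzymes that build the glycosaminoglycan chains on serglycin lay on both sides of 0. Of 17 measured genes 12 were lower and 5 higher, beside 52.4% of all named genes below 0, with a median of -0.06. Beyond 1.2-fold 1 was higher and 3 were lower, beside 9.71% of all named genes higher and 9.63% lower. CHST13, a chondroitin sulfotransferase, was at 0.57 from a dim signal (4.02 and 4.59). CHPF, a chondroitin polymerizing factor, was at -0.45 (6.06 and 5.61) and CHST12, another chondroitin sulfotransferase, at -0.39 (6.33 and 5.94). The third lower gene beyond 1.2-fold was XYLT1, a xylosyltransferase that starts the chain, at -0.38, named after its value was seen. The SD of genes with the signal of CHPF and CHST12 was 0.19. SRGN itself was at -0.08.

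Transcription factors and receptors upstream of the granule lay on both sides of 0. Of 16 transcription factors of cytotoxic cells 11 were higher and 5 lower, beside 52.4% of all named genes below 0, with a median of 0.10. Beyond 1.2-fold 4 were higher and 1 was lower, beside 19.3% of all named genes in either direction. TBX21, which encodes T-bet, an activator of cytotoxic genes, was at 0.47 (4.62 and 5.09), ZNF683, which encodes Hobit, at 0.35 and TOX at 0.32. Each of these lay inside the central 95% of its signal decile. RUNX3, named after its value was seen, was at 0.24 (8.59 and 8.83), above the central 95% of the brightest decile, which ended at 0.17. Of 14 activating receptors and adaptors 5 were higher and 9 lower, with a median of -0.03. SYK, a kinase downstream of activating receptors, was at -0.44 (5.12 and 4.68), the receptor gene NCR2 at 0.38 and the kinase gene LCK at 0.28. The granule genes had a narrower range, from -0.27 to 0.19, but 4 of them are in the brightest decile, where the spread is smallest.

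**Figure D4:**
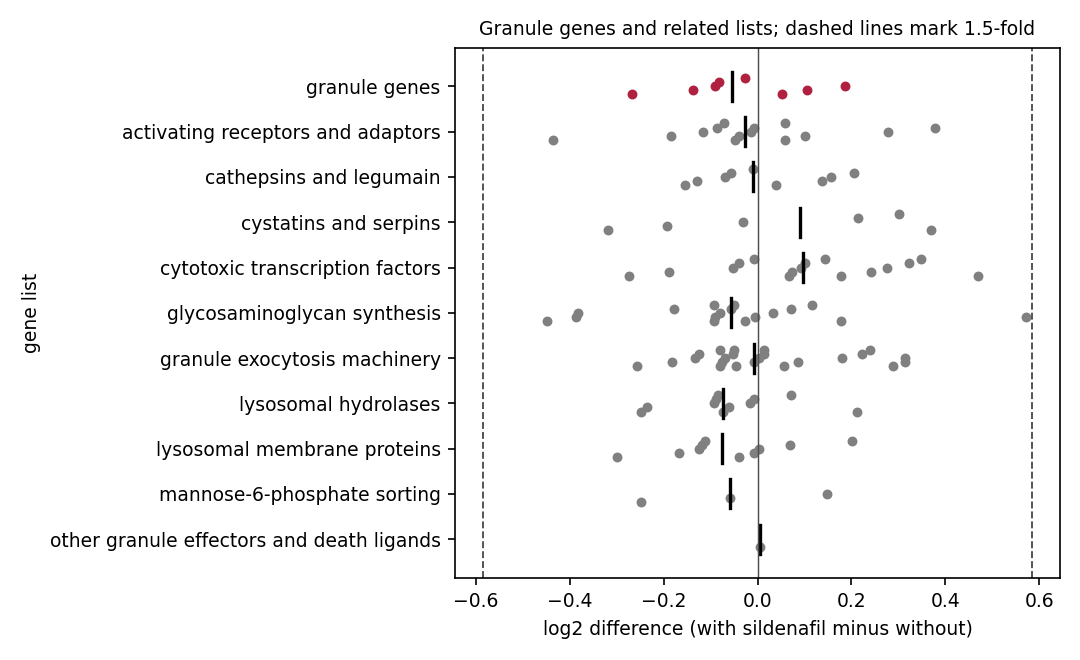
Log2 difference (with sildenafil minus without) of each granule gene (red) and each gene past the filter of the related lists (grey), with 1 row per list, a black bar at each list's median and dashed lines at 1.5-fold; vertical offsets within a row only separate points. No point reaches the dashed lines; CHST13 (0.57) comes nearest.

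PRF1 and SRGN lie on chromosome 10, GZMM and NKG7 on chromosome 19, and each other granule gene on a chromosome of its own. The neighbours of the granule genes gave a view of other transcripts near them. Of the 16 nearest protein-coding genes on either side, 12 passed the filter, and their differences ran from -0.13 to 0.41 with a median of 0.08. None reached 1.5-fold. The median over all named genes past the filter was -0.01, but it was 0.07 in the dimmest signal decile and 0.06 in the next. SFTPB, at 0.41, and GRTP1, at 0.34, had dim signals and are named after their values were seen. GRTP1 passed the filter only on the array where it was higher, which favours a positive difference. The median of the neighbours therefore cannot be read as a shift near the granule genes. CLDND2, a neighbour of NKG7, was at 0.07 where NKG7 was at -0.27, and is named after its value was seen.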

How the data were processed

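Expression arrays measured total RNA of 2 SNK6 cultures after whole-transcript amplification and biotin labelling, per the labels' protocols. Samples were grouped by title; the second drug's short form was read as sildenafil, the only other drug of the protocol. The authors deposited log2 signals for 53617 probe sets; how they corrected background, summarised probes and normalized is not stated in the sources. The log base was inferred, since the largest value, 13.05, exceeds what a natural log of 16-bit intensities allows (11.1). The deposited columns, when sorted, differed by at most 0.15; whether a change shared by most transcripts was removed or absent cannot be told from them. The table holds no detection calls, and the number of arrays limits precision.

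Names came from the platform annotation (16098 probe sets with 1 symbol; the others were not used), with the brightest probe set for each gene. Deciles were of mean signal among genes past the filter. Genes were counted at 1.5-fold, with no p-value. Besides the 8 granule genes, the text names up to 3 genes with the largest difference from each related list, and all of a list with 4 or fewer. The members and lists were chosen with earlier results of these data known. Promoters were from RefSeq, GRCh38.p14. Alternatives changed scaling, filter, probe set rule and fold (lowess span 0.3). Counting and scaling were tested on simulated data. Python 3.11.15, numpy 2.4.6, pandas 2.3.3 and statsmodels 0.14.6 were used.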

Additional observations from a re-analysis of the deposited data

How the results depend on the processing

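With 6 alternatives of scaling, filter and probe set rule, 47 differences were computed for the granule genes. They moved by at most 0.10 from the reported ones, and 0 of 8 genes reached 1.5-fold in any. Each gene has 1 probe set, so only the changes of scaling could move a difference. The other filters and the probe set rule could only repeat or drop it. The median of the genes ran from -0.08 to -0.01. PRF1 was the 1 gene whose sign changed, after quantile normalization and lowess centring. GNLY moved to 0.0031 after lowess centring and did not pass a filter on the mean of both arrays. At a 1.2-fold threshold 1 granule gene and 19 of the related genes were counted, and at 2-fold none. The related genes beyond 1.5-fold remained 0 under all 6 alternatives; for them, median centring and the 2 other filters were chosen after seeing the data, as were the alternatives for the share of the decile as far from 0 as NKG7, which ran from 3.37% to 6.65%. Ranked among all probe sets in place of named genes, or by the mean of a gene's probe sets, 8 of 32 percentiles moved by 5 points or more. Each of these moves came from the ranking among all probe sets. No paired analysis was possible because each group holds 1 array and the titles carry no replicate numbers. No replicate could be left out. Low signal limits GNLY most.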
